A study of Mus musculus with 4 samples.

Results

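The genes described here are the amino acid transporters of 7 solute carrier (Slc) families on a whole-genome mouse array: Slc1, Slc3, Slc6, Slc7, Slc36, Slc38 and Slc43. They were chosen by name alone, as every gene spot whose array name starts with one of these families followed by a member number. That gave 96 probes of 56 gene names, out of 43379 gene spots and 27962 gene names. One of the 56, Slc7a6os, is an opposite-strand neighbour of Slc7a6 and no transporter. A further 8 probes of 6 genes (Slc38a7, Slc38a8, Slc38a9, Slc38a10, Slc38a11 and Slc6a20a) stand on the array under older names, so the name rule left them out. The cells were mouse mucosal mast cells differentiated in vitro and stimulated with interleukin 18 (IL-18), or left unstimulated. Each of 4 biological replicates was hybridised on 1 array, with the RNA of the stimulated cells in Cy5 and that of their own unstimulated control in Cy3. The labels name no strain, dose or duration. No array had the dyes exchanged, so the dye and IL-18 cannot be told apart. These are bulk cultures, in which fewer cells of a type and less RNA per cell cannot be told apart either.

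Amino acid transporters carry amino acids across membranes as exchangers, as uniporters or together with sodium, chloride or protons. Some work as pairs: the heavy chain Slc3a2 (CD98, 4F2hc) brings a light chain of the Slc7 family, such as the leucine transporter Slc7a5 or the cystine transporter Slc7a11, to the cell surface. Uptake of leucine and glutamine feeds the growth kinase complex mTORC1, and shortage of amino acids acts through the kinase GCN2 and the transcription factor ATF4, for which several transporter genes are known targets. The Slc6 family also holds carriers of taurine, betaine, creatine, GABA and the monoamines. The serotonin transporter Slc6a4 is of interest in rodent mast cells, which store serotonin in their granules.

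The share of gene spots well above background ran from 57.9% to 62.7% in the stimulated channel and from 49.9% to 54.0% in the control channel, and no gene spot was saturated. All 14 mast cell markers examined were well above background in both channels on all 4 arrays. So were all 6 macrophage markers and both basophil markers, against 1 of 6 neutrophil, 1 of 4 eosinophil, 1 of 5 T cell, 1 of 4 B cell, 1 of 3 dendritic cell, 2 of 3 erythroid and 1 of 4 fibroblast markers. The part of other cells in the results was not tested. The mean raw signal was larger in Cy5, at 2968 to 3737 in the stimulated channel and 1156 to 1385 in the control channel. The median raw signals were close, at 93.2 to 104.6 and 90.2 to 102.4. The excess of Cy5 thus lay in the bright spots. Each log2 ratio below is stimulated over control after loess, which sets the typical ratio at each brightness to 0. "Higher" and "lower" therefore mean relative to other probes of like brightness. Of the transporter genes, 38 had a probe that could be tested, meaning that 1 channel was well above background on 3 or 4 of the 4 arrays, and 27 had one well above background in both channels on all 4. For 11 genes, no probe was well above background on any array.

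IL-18 stimulated cells had lower ratios of the taurine transporter Slc6a6 and of the leucine transporter Slc7a5, and a higher ratio of the betaine and GABA transporter Slc6a12. With the neutral amino acid transporter Slc38a2, lower, and with Slc6a19, Slc7a3 and Slc6a4, higher, these were the 7 of 38 genes that passed an adjusted p of 0.05 in limma by their brightest tested probe. Slc6a4 could be tested only through its stimulated channel. When both channels had to be well above background on all 4 arrays, Slc6a4 was not among the genes tested, and 3 higher and 3 lower genes of 27 remained. The 7 genes make 18.4% of the 38, while 33.0% of all 16969 tested genes passed (19.6% higher and 13.5% lower). When arrays were centred on their median in place of loess, the median of all tested genes moved to 0.53, and all 7 genes lay above 0. Against that median, Slc6a12 (0.98), Slc7a3 (0.91), Slc7a5 (0.84) and Slc38a2 (0.85) were above. Slc6a19 (0.55) was level, and Slc6a4 (0.22) and Slc6a6 (0.37) were below. Median centring shifts all probes of an array alike, so these positions also depend on brightness. Mean log2 intensity was 14.75 for Slc7a5 and 12.81 for Slc38a2, but 7.14 for Slc6a4. When ratios were also scaled between arrays, none of the 16969 genes passed in limma (3657 had an unadjusted p below 0.05, 4 of them transporters). By probe, 8 of 55 tested transporter probes were higher, 7 were lower and 40 were not called. That is 27.3%, beside 34.2% of all 24101 tested probes (18.1% higher and 16.1% lower). The median log2 ratio of the 38 genes was 0.049 and that of all tested genes 0.035, and the median size of the ratio was 0.079 beside 0.12. An unadjusted p below 0.05 was found for 13 of the 38 transporter genes and for 7847 of the 16969.

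**Figure D1:**
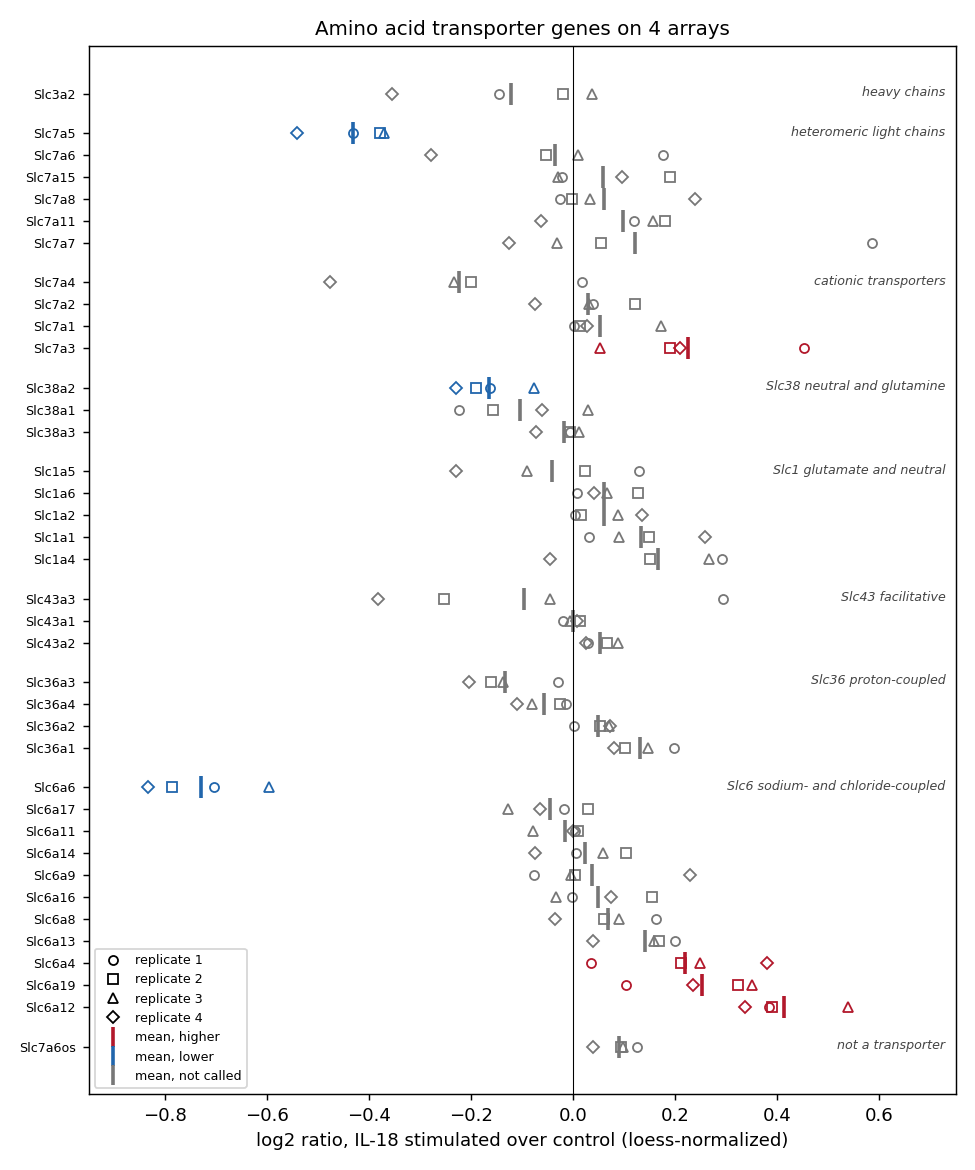
Loess-normalized log2 ratio (stimulated over control, x axis) of the 38 tested genes, each by its brightest tested probe and grouped by role. Open symbols are the 4 arrays, bars are means, red marks genes called higher and blue genes called lower. Slc6a6 at −0.73 and Slc6a12 at 0.41 have the means farthest from 0; the 3 blue genes lie above 0 when arrays are centred on the median instead, which moves the median of all tested genes to 0.53.

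The heavy chain Slc3a2 was among the brightest transporter probes (mean log2 intensity 15.43). That probe gave log2 ratios of −0.15, −0.021, 0.037 and −0.35 in replicates 1 to 4. The values lie on both sides of 0, and the mean of −0.12 ± 0.17 (SD, n = 4) did not pass (limma adjusted p = 0.218 over genes). The scanner software's log2 ratios for this probe were −0.24, −0.23, −0.19 and −0.53, all below 0, and their mean of −0.30 passed as lower (limma adjusted p = 0.0232 over probes). Under median centring the value was 1.24. A second, dimmer Slc3a2 probe (9.89) read −0.18, −0.45, −0.52 and −0.96. It was below 0 on all 4 arrays, with a mean of −0.53 ± 0.32 (SD, n = 4) that passed (limma adjusted p = 0.0165 over probes). Without replicate 2 or without replicate 3 this probe no longer passed, and under median centring it was 0.12. Slc3a2 was also lower when the median over its probes was taken. The kidney heavy chain Slc3a1 was not well above background on any array.

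Among the 10 light chains of the Slc7 family, 6 could be tested, 1 was lower and none was higher. Slc7a5, the light chain that carries leucine and other large neutral amino acids, read −0.43, −0.38, −0.37 and −0.54 on probe A_51_P273639. All 4 arrays lay below 0 and within a narrow range. The mean was −0.43 ± 0.08 (SD, n = 4), a 1.35-fold lower ratio (limma adjusted p = 0.00195). Before normalization its stimulated signal was 1.82 to 2.12 times its control signal. Under median centring its ratio was 0.84, above the median there of all tested genes, dim and bright alike (0.53). The call held without any 1 of the 4 replicates.

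Slc7a11, the light chain that imports cystine in exchange for glutamate, had 3 tested probes and none was called. The brightest read 0.12, 0.18, 0.16 and −0.062, with a mean of 0.098 ± 0.11 (SD, n = 4; limma adjusted p = 0.196). The next read 0.015, 0.085, 0.095 and 0.29 (mean 0.12 ± 0.12), and the third −0.027, −0.15, −0.14 and −0.22 (mean −0.13 ± 0.08). Probes of this gene thus had means on both sides of 0. Slc7a7, a light chain that exports cationic amino acids, read 0.59 in replicate 1 and 0.056, −0.031 and −0.13 in the others. Its mean of 0.12 ± 0.32 (SD, n = 4) did not pass, and without replicate 1 it was −0.034. Slc7a8, a second transporter of large neutral amino acids, had a mean of 0.062 ± 0.12. The 2 tested probes of Slc7a6 had means of −0.036 and 0.13, and Slc7a15 had a mean of 0.059. None of these passed.

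Of the cationic amino acid transporters, which carry arginine, lysine and ornithine, 4 could be tested. Slc7a3 read 0.45, 0.19, 0.054 and 0.21. It was above 0 on all 4 arrays, most in replicate 1, with a mean of 0.23 ± 0.17 (SD, n = 4; 1.17-fold; limma adjusted p = 0.0436). The call was lost without any 1 of the 4 replicates (means 0.15 to 0.28). Slc7a1, the widely expressed member, read 0.0012, 0.013, 0.17 and 0.028. Only replicate 3 was far from 0, and the mean of 0.054 ± 0.08 (SD, n = 4) did not pass (limma adjusted p = 0.406). Slc7a2 had a mean of 0.030 and the orphan Slc7a4 one of −0.22 ± 0.20 (limma adjusted p = 0.0684). Neither passed with this setting.

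The Slc38 family takes up glutamine, alanine and serine with sodium. Of its 5 genes 3 could be tested, and Slc38a3 had a mean of −0.019 that did not pass. Slc38a1 and Slc38a2, which lie next to each other in the RefSeq annotation, each carried several probes, and probes of the same gene were called in opposite directions. The brightest of 4 probes of Slc38a2 read −0.16, −0.19, −0.077 and −0.23. All arrays lay below 0, and the mean of −0.17 ± 0.07 (SD, n = 4) passed (limma adjusted p = 0.0325 over genes). That call was lost without any 1 of the 4 replicates, and under median centring the ratio was 0.85. It was also lost with the software's log ratio (limma adjusted p = 0.0791 over probes). Over genes it was lost with the eBayes trend and robust options and with the median over probes. A second probe read −0.30, −0.36, −0.11 and 0.075 and did not pass, and the dimmest had a mean of −0.096. The remaining one read 0.32, 0.0029, 0.33 and 0.38. It was above 0 on every array, close to 0 only in replicate 2, and its mean of 0.26 ± 0.17 (SD, n = 4) passed as higher (limma adjusted p = 0.0313 over probes). It lost the call without replicate 1, 3 or 4. Its accession had no match in RefSeq, unlike those of the brightest and the second probe.

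Slc38a1 had 6 tested probes. Its brightest read −0.22, −0.16, 0.029 and −0.060 and was not called (mean −0.10 ± 0.11; limma adjusted p = 0.180 over genes). One dimmer probe (mean log2 intensity 8.70) read 0.20, 0.19, 0.25 and 0.20. These 4 values were nearly equal, and their mean of 0.21 ± 0.02 (SD, n = 4) passed (limma adjusted p = 0.0113 over probes). A probe at 12.66 was also higher, with 0.039, 0.16, 0.27 and 0.27 (mean 0.18), and a probe at 10.77 was lower, with −0.16, −0.25, −0.22 and −0.048 (mean −0.17). The other two had means of 0.034 and −0.021. All 3 called probes lost their call without replicate 2 or without replicate 3. The accessions of the brightest probe and of the probe at 8.70 matched Slc38a1 in RefSeq, while the other 4 probes have the array's name alone. Over all genes with more than 1 tested probe, 286 of 5222 had probes called in both directions, and among the transporters 2 of 10 did. These 2, Slc38a1 and Slc38a2, had 6 and 4 tested probes, and the counts were not matched for the number of probes per gene. All tested probes had the same sign in 5 of these 10 transporter genes and in 2889 of the 5222.

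**Figure D2:**
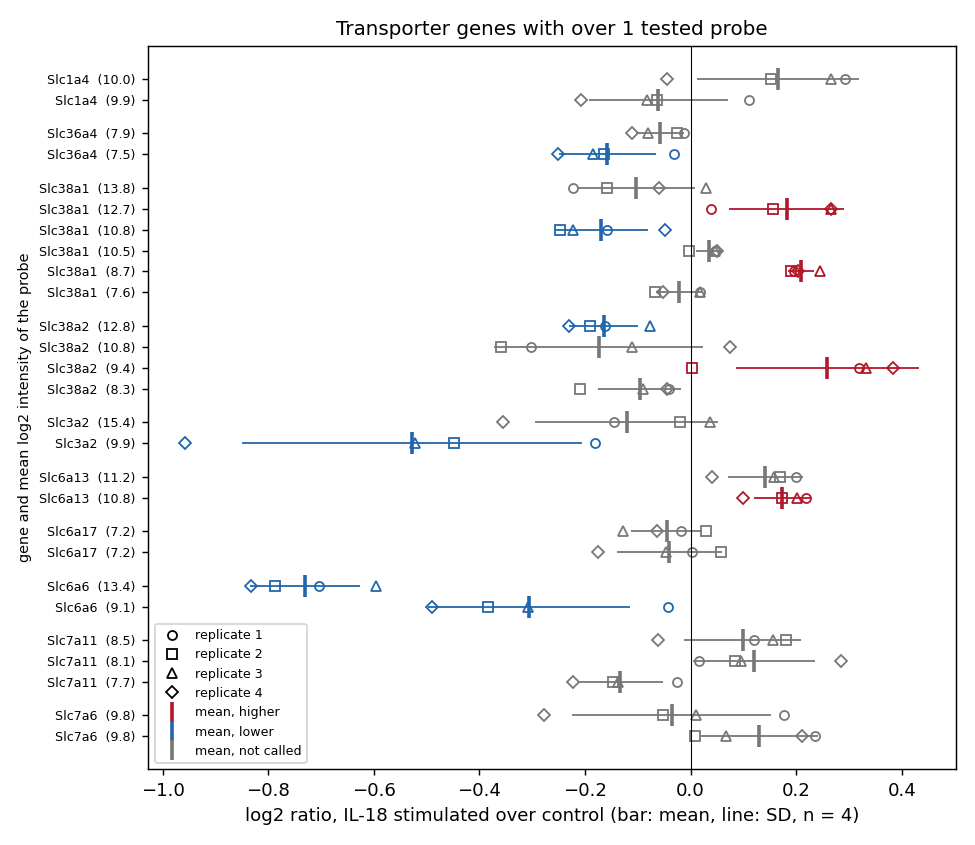
Loess-normalized log2 ratios (x axis) of every tested probe of the 10 transporter genes with more than 1, ordered within each gene by mean log2 intensity (in brackets). Open symbols are arrays, bars and lines are mean ± SD (n = 4), red is higher and blue lower. Slc38a1 and Slc38a2 hold red and blue probes, while both probes of Slc6a6 are blue; the blue probes other than the dimmer one of Slc36a4 turn above 0 under median centring, where the median of all tested genes is 0.53.

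None of the 5 tested members of the Slc1 family, which holds the glutamate transporters and the neutral exchangers, was called. Slc1a5, the exchanger best known for glutamine, read 0.13, 0.024, −0.091 and −0.23. Replicates 1 and 2 were above 0 and replicates 3 and 4 below, and the mean of −0.042 ± 0.15 (SD, n = 4) did not pass (limma adjusted p = 0.641). Slc1a4, a related exchanger of alanine, serine and cysteine, read 0.29, 0.15, 0.27 and −0.045 on its brighter probe. It was above 0 on 3 arrays (mean 0.17 ± 0.15; limma adjusted p = 0.0908), while its other probe had a mean of −0.061. The glutamate transporter Slc1a1 was well above background in the control on 1 array only and had a mean of 0.13 ± 0.10 that did not pass. The glial glutamate transporter Slc1a2 had a mean of 0.061.

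The 3 Slc43 facilitative transporters and the 4 proton-coupled Slc36 transporters could all be tested, and no gene was called by its brightest tested probe. Slc43a3, the brightest Slc43 member, scattered widely, with 0.29, −0.25, −0.045 and −0.38. Slc43a2 was not well above background in the control on any array, and neither were Slc1a6 and Slc6a14 of the other families. None of these 3 was called. Slc36a1, a lysosomal and plasma membrane transporter of small amino acids, was above 0 on all 4 arrays with a mean of 0.13 ± 0.05 (SD, n = 4; limma adjusted p = 0.0562). The probe behind these values had no match in RefSeq, and the Slc36a1 probe with a match was too dim to be tested. The 4 arrays lay on 2 slides, and with the slide as a random block Slc36a1 passed as higher (limma adjusted p = 0.0469 over probes). The slide correlation was slightly negative (−0.056), which lowers the standard error. Other settings were divided. Slc36a1 passed with the eBayes trend and robust options (limma adjusted p = 0.0394 over probes). It did not pass with the software's log ratio (limma adjusted p = 0.117 over probes) or with any 1 replicate left out. The dimmer of the 2 tested probes of Slc36a4 was lower at −0.16 ± 0.09 (limma adjusted p = 0.0494 over probes), while the brighter one had a mean of −0.058 and was not called. Slc36a3 was below 0 on all 4 arrays but did not pass (mean −0.13 ± 0.07, limma adjusted p = 0.0682 over genes). Its control was well above background on 1 array only. It passed as lower with the software's log ratio (limma adjusted p = 0.00277 over probes), without background correction and under median centring. With the eBayes trend and robust options or the slide as a random block it did not. Slc36a2 had a mean of 0.049, and Slc43a1 one of −7.97e-04.

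The Slc6 family, whose members move their substrates with sodium and chloride, held 4 of the 7 called genes among its 11 tested, a share (36.4%) near the 33.0% of all tested genes. Slc6a6, the taurine transporter, read −0.70, −0.79, −0.60 and −0.83 on its brighter probe (A_52_P339996, mean log2 intensity 13.41). All 4 arrays were far below 0, and no other transporter gene had a lower mean. The mean of −0.73 ± 0.10 (SD, n = 4) is a 1.66-fold lower ratio (limma adjusted p = 7.50e-04). Its second probe (9.12) read −0.043, −0.38, −0.31 and −0.49. That probe too was below 0 on every array, least in replicate 1, and passed as lower (mean −0.31 ± 0.19, limma adjusted p = 0.0236 over probes). The scanner software's log2 ratios for this dimmer probe were −0.30, −0.37, −0.36 and −0.48. On the brighter probe the raw stimulated signal was still 1.23 to 1.52 times the control signal. Under median centring the ratio was 0.37, above 0 but below the 0.53 median of all tested genes. The call of the brighter probe held without any 1 replicate, and that of the dimmer one was lost without replicate 2 or without replicate 3.

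Slc6a12, the betaine and GABA transporter BGT1, read 0.39, 0.39, 0.54 and 0.34 on its only probe (A_51_P323812). All 4 arrays were well above 0. The mean of 0.41 ± 0.09 (SD, n = 4; 1.33-fold) passed (limma adjusted p = 0.00247), and the call held without any 1 replicate. Slc6a13, a carrier of GABA and taurine and the adjacent gene in RefSeq, had 2 tested probes. The brighter read 0.20, 0.17, 0.16 and 0.040 (mean 0.14 ± 0.07, limma adjusted p = 0.0544 over genes) and was not called. It passed with the slide as a random block (limma adjusted p = 0.0461 over probes), where the slide correlation was slightly negative (−0.056). This probe also passed with the eBayes trend and robust options (limma adjusted p = 0.0347 over probes). The same held without background correction, under median centring and without replicate 4. With the software's log ratio (limma adjusted p = 0.0558 over probes), or without replicate 1, 2 or 3, it did not pass. The other probe read 0.22, 0.17, 0.20 and 0.099 and passed as higher (mean 0.17 ± 0.05; limma adjusted p = 0.0247 over probes). Both probes lay above 0 on all 4 arrays, lowest in replicate 4, and the call of the second was lost without replicate 2 or without replicate 3. By the brightest tested probe, 1 gene of the Slc6a12 and Slc6a13 pair was called, and no more than 1 in the other adjacent pairs with both genes tested (Slc36a2 with Slc36a1, Slc36a3 with Slc36a2, Slc38a1 with Slc38a2, and Slc7a6 with its neighbour Slc7a6os).

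For Slc6a12 the 250 bases upstream of its RefSeq start are given, because it was the transporter gene with the highest ratio and NF-kB is a known effector of the IL-18 receptor. Slc7a11 is given because its upstream bases hold 2 matches to the C/EBP-ATF response element, to which ATF4 binds. Both are from RefSeq (GRCm38.p6), read 5′ to 3′ on the gene's strand, with matches in capitals.
Slc6a12, chr6:121342324-121342573, plus strand: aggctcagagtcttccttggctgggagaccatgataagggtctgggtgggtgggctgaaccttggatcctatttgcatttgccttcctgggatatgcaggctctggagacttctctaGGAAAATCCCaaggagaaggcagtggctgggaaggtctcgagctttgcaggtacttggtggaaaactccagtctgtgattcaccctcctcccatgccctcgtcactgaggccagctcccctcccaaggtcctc
Slc7a11, chr3:50443614-50443863, minus strand: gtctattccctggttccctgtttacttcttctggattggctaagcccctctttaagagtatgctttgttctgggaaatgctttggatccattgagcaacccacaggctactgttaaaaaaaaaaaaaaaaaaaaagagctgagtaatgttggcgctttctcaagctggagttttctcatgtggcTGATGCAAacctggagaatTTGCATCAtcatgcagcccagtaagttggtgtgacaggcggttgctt

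The RefSeq promoter table held 37 of the 56 genes, in 58 windows. The NF-kB consensus was searched on both strands of 250 upstream bases. It was found in 3.90% of all 32851 windows and in 7 of the 58 transporter windows, of 6 genes (Slc1a6, Slc43a2, Slc6a12, Slc6a13, Slc7a10 and Slc7a7). The Slc7a7 windows with this match overlap and hold the same one. In Slc6a12 the match starts 133 bases before the start site. Of these genes Slc6a12 alone was called by its brightest tested probe. The C/EBP-ATF element, searched as TGATGNAA on both strands, was in 3.45% of all windows and in 3 transporter windows of 2 genes, Slc7a11 and Slc7a7. Slc7a11 has 2 matches on opposite strands, the first 66 bases before the start site, and none of its probes was called. A match describes letters in the window and shows no binding. Slc6a6, Slc7a5, Slc7a3 and Slc38a1 were not looked up, having no entry.

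Slc6a19, a transporter of neutral amino acids best known from kidney and gut epithelium, read 0.10, 0.32, 0.35 and 0.24. All arrays lay above 0, and the mean of 0.25 ± 0.11 (SD, n = 4; 1.19-fold) passed (limma adjusted p = 0.0153), but not without replicate 2 or without replicate 3. Slc6a4, the serotonin transporter, read 0.035, 0.21, 0.25 and 0.38. It was above 0 on every array, least in replicate 1, with a mean of 0.22 ± 0.14 (SD, n = 4; limma adjusted p = 0.0363). The probe was dim: it was well above background on all 4 arrays in stimulated cells but on 1 of 4 in the control, so its size is set against a control signal near background. The scanner software's log2 ratios for it were 0.62, 0.47, 1.14 and 1.88, larger on every array than the values from normexp and loess. The call was lost without replicate 2, 3 or 4. The glycine transporter Slc6a9, among the brightest members at 14.86, had a mean of 0.038 ± 0.13, and the creatine transporter Slc6a8 one of 0.069 ± 0.08. Neither passed. Slc6a11, Slc6a14, Slc6a16 and Slc6a17 did not pass either. Among the 8 Slc6 genes that could not be tested were the dopamine transporter Slc6a3, the noradrenaline transporter Slc6a2, the glycine transporter Slc6a5, the proline transporter Slc6a7, and Slc6a15, Slc6a18 and Slc6a20. Of the other families, Slc1a3, Slc1a7, Slc3a1, Slc7a9, Slc7a10, Slc7a12, Slc7a13, Slc7a14, Slc38a4 and Slc38a5 could not be tested either.

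Calls were more frequent among bright probes. The tested probes were split at their median brightness, a mean log2 intensity of 8.83. Above it, 47.1% of all probes and 37.9% of the 29 transporter probes were called (5 higher and 6 lower). Below it, 21.2% of all probes and 15.4% of the 26 transporter probes were called (3 higher and 1 lower). Ratios of dim probes spread least in replicate 1. The SD of the log2 ratio over the 41 untested transporter probes was 0.01 in replicate 1 and 0.094, 0.078 and 0.12 in replicates 2, 3 and 4. Over all tested probes, the median absolute deviation was 0.097, 0.21, 0.19 and 0.28 in replicates 1 to 4. Over the 55 tested transporter probes, the correlation between arrays ran from 0.48 (replicates 1 and 4) to 0.86 (replicates 2 and 3), across probes that share arrays and are no independent replicates.

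**Figure D3:**
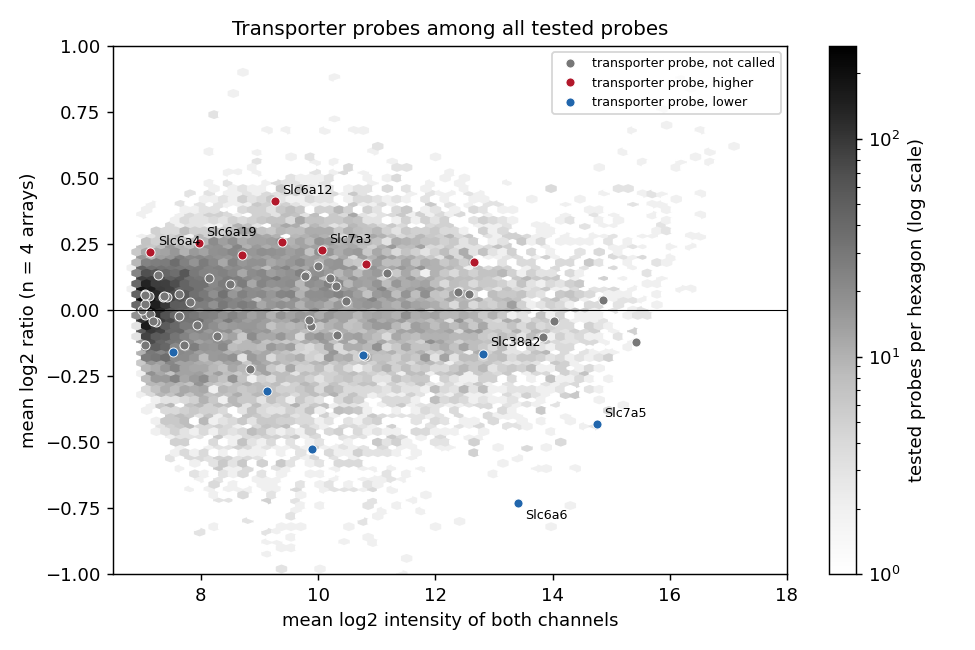
Mean log2 ratio (y axis, n = 4 arrays) against mean log2 intensity (x axis) for all tested probes (grey hexagons, log colour scale) and the 55 tested transporter probes (points). The y axis ends at −1 and 1, which leaves out 127 tested probes and no transporter probe. Slc7a5 and Slc6a6 are bright probes below the bulk of probes of like brightness, whereas Slc6a4 and Slc6a19 are dim. The lower position of Slc7a5 and Slc6a6 is relative to loess. Under median centring, which takes no account of brightness, Slc7a5 is at 0.84 and Slc6a6 at 0.37. All tested genes then have a median of 0.53.

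**Figure D4:**
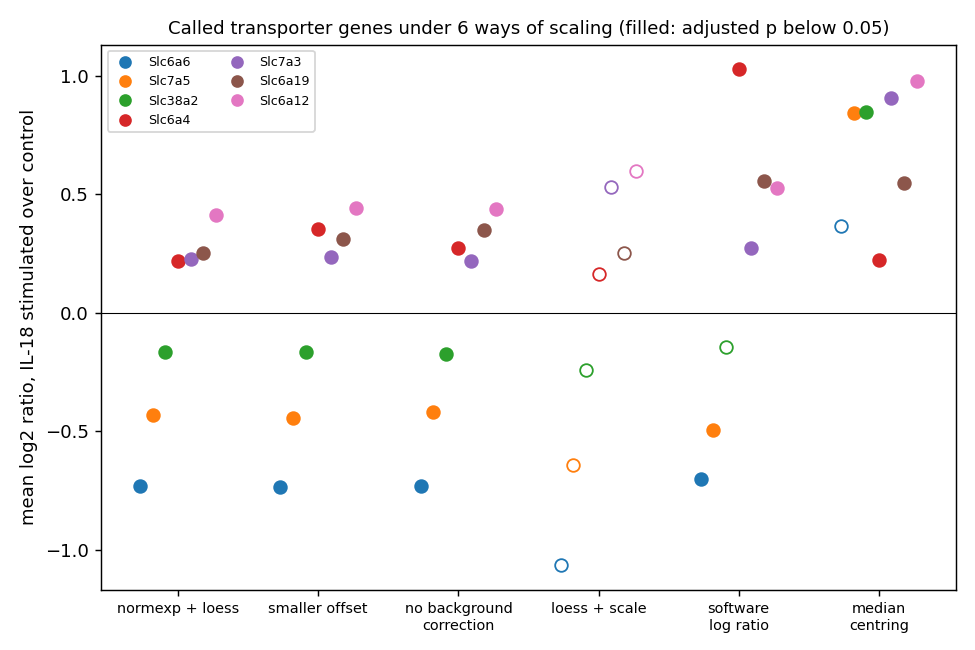
Mean log2 ratio (y axis) of the 7 called genes under 6 ways of scaling (x axis); filled points have an adjusted p below 0.05. Slc6a6, Slc7a5 and Slc38a2 lie below 0 under 5 settings. Under median centring, which takes no account of brightness, all 7 lie above 0. Slc6a4 (0.22) and Slc6a6 (0.37) lie below the 0.53 median of all tested genes there.

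Genes that work beside these transporters were counted in 5 lists, by the brightest tested probe of each gene. In the list of glutathione and cystine use, 6 of 13 tested genes were lower and none higher, with a median of −0.18. The largest were Keap1, a sensor of oxidants (−0.57 ± 0.15), Gclc, the rate-limiting enzyme of glutathione synthesis (−0.50 ± 0.15), and Bach1, a repressor of antioxidant genes (−0.44 ± 0.30; SD, n = 4 each). Under median centring Keap1 was 0.39, Gclc 0.50 and Bach1 −0.032, all below the 0.53 median of all tested genes there. Among enzymes of amino acid synthesis and breakdown, 2 of 35 were higher and 7 lower. Shmt2 (−0.47 ± 0.08) and Phgdh (−0.28 ± 0.07), which make glycine and serine, were lower; under median centring they were 0.54 and 0.76, at or above that median. Tph1, the enzyme that starts serotonin synthesis, was higher at 0.44 ± 0.15, but its ratio was −0.041 when the median over its probes was taken.

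In the list of the amino acid starvation response, 3 of 14 genes were higher and 3 lower. Ppp1r15a, which reverses the phosphorylation of eIF2 alpha, was lower at −1.07 ± 0.37, and the ATF4 target Trib3 was lower at −0.51 ± 0.10. Under median centring Ppp1r15a was −0.33 and Trib3 0.51, both below that median, and neither passed. Nupr1, a stress-induced nuclear protein, was higher at 0.46 ± 0.09. In the list of lysosomal sensing and mTORC1, 6 of 29 were higher and 4 lower, with mTOR, whose probes have its older name Frap1, counted once. Rptor, the scaffold of mTORC1, was lower at −0.83 ± 0.53, Akt1s1, an mTORC1 inhibitor, at −0.83 ± 0.36, and the lysosomal GTPase Rragd was higher at 0.39 ± 0.21. Under median centring Akt1s1 was −0.26 and did not pass. Rptor, Rragd and Slc25a44 (named next) lost their calls without replicate 2 or without replicate 3, and Bach1, Phgdh and Cltrn without replicate 2. In the list of amino acid transporters of other families and their accessory proteins, 2 of 16 tested genes were higher and none lower: Cltrn, an accessory protein of Slc6a19 and no transporter itself (0.30 ± 0.11), and Slc25a44, a mitochondrial carrier of branched-chain amino acids (0.20 ± 0.09). Of the probes under older names, 5 were tested, and 1 passed, a probe of Slc38a10 at −0.56 ± 0.18 (0.69 under median centring), whose second probe had a mean of −0.15 and did not. The shares called in the 5 lists were 46.2%, 25.7%, 42.9%, 34.5% and 12.5% in the order given here, beside the 33.0% of all tested genes.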

How the data were processed

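Members and gene lists were chosen with earlier results of these data known. Spot intensities (mean signal and local background median, both channels) were used as deposited, made by the authors with Agilent Feature Extraction 9.1 per the file headers and the submitters' processing notes. The software's log10 ratios in the scanner files, and a deposited log10 ratio table that differed from them by at most 0.00496, served as alternatives. Here, background was corrected by normexp (offset 50) and log2 ratios of Cy5 over Cy3, computed from the authors' intensities, were loess-normalized per array, with outlier and control spots at weight 0. Spots of 1 probe were averaged. Each probe's mean was tested against 0 with limma 3.58.1 in R 4.3.3 (lmFit, eBayes, two-sided), which is the paired test, with Benjamini-Hochberg adjustment over 24101 probes or, each gene by its brightest tested probe, 16969 genes, at 0.05. All adjusted p-values are limma's. The number of arrays limits the precision.

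Values on each array are given for member genes past the threshold with 1 sign on all arrays, for 9 listed genes (Slc3a2, Slc7a5, Slc7a11, Slc7a1, Slc1a5, Slc1a4, Slc38a1, Slc38a2 and Slc6a6), and for genes with a called probe and another of opposite sign; further members were named after their values were seen. Of each related list, up to 3 genes with the largest called ratios are named. Accessions of 78 of the 96 probes matched RefSeq; the array name Slc6a20 is Slc6a20b there. The steps were also run on simulated arrays, to which the dye trend fitted by loess was added back. Such arrays cannot show whether loess or median centring places the real ratios rightly. One member is not reported here as a single gene.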

Additional observations from a re-analysis of the deposited data

Results flagged for a closer look

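Among 55 transporter probes, 4 had 1 array set apart from the other 3 by Dixon's 95% criterion for a gap within 4 values, which chance meets in about 5% of probes. A probe of Slc38a2 read 0.00285 in replicate 2 and 0.32 to 0.38 in the others, and a probe of Slc38a1 read −0.00308 in replicate 2 and 0.045 to 0.049 in the others. Slc6a11 read −0.0789 in replicate 3 and 6.72e-04 to 0.0096 in the others, and Slc7a1 read 0.1728 in replicate 3 and 0.0012 to 0.028 in the others. Of these 4 probes, the one of Slc38a2 was called.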

How the results depend on the processing

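Scaling had the largest effect. Median centring in place of loess moved the median of all tested genes from 0.035 to 0.53 and that of the transporter genes to 0.44. It gave 22 transporter genes higher and 1, Slc36a3, lower (33 and 1 probes). Of all calls, 99.2% were then higher, beside 59.2% with loess. Scaling between arrays after loess left 0 transporter genes, 0 transporter probes and 0 of 16969 genes called in limma (4 transporter genes and 3657 genes at an unadjusted p below 0.05). The software's log ratio and the deposited table each gave 7 genes higher and 5 lower, eBayes with trend and robust options 8 higher, and no background correction 5 lower. With 1 replicate left out, 1 to 5 genes were higher and 2 to 4 lower, or 1 to 7 and 2 to 8 probes. The lowest gene counts, 1 higher (Slc6a12) and 2 lower (Slc6a6 and Slc7a5), came without replicate 2 and without replicate 3. The smaller offset, both other filters, the slide as a random block (correlation −0.056) and the median over probes changed the gene counts little. The counts stayed within 1.5 times those reported, though not always with the same genes. Over all tested transporter probes and alternatives, 605 values kept direction and side of the threshold, 59 lost and 50 gained a call, and 44 changed sign. No separate fit with a replicate block was made: each ratio is already a difference within 1 pair, so the reported test is the paired one.

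Signs changed as follows; the cause was not tested. Under median centring, log2 ratios above 0 were reached by Slc1a4 (dimmer probe, 0.59), Slc1a5 (1.14), Slc36a4 (brighter, 0.22), 3 probes of Slc38a1 (0.61, 1.05 and 0.16), 3 of Slc38a2 (0.27, 0.85 and 0.60), both of Slc3a2 (1.24 and 0.12), Slc43a3 (0.62), both of Slc6a6 (0.22 and 0.37), Slc7a11 (0.072), Slc7a4 (0.26), Slc7a5 (0.84) and Slc7a6 (0.61), while Slc1a6 (−4.10e-04) and Slc6a14 (−0.028) fell below 0. Of the related genes, values above 0 were also reached by Gclc (0.50), Keap1 (0.39), Phgdh (0.76), Shmt2 (0.54), Slc38a10 (0.69) and Trib3 (0.51). Scaling between arrays gave 0.060 for that Slc1a4 probe, 0.089 for Slc1a5, 0.0033 for the dimmest Slc38a1 probe, 0.20 for Slc43a3, −0.047 for Slc6a9 and 0.14 for Slc7a6. An offset of 16 gave 0.0035 for Slc43a1, and no background correction 0.0095 for the dimmest Slc38a1 probe. The software gave 0.0057 for Slc1a5, 0.0019 for that Slc38a1 probe and −0.053 for Slc6a9, and the values of the deposited table were 0.0057, 0.0019 and −0.053. The median over probes gave −0.041 for Tph1. With 1 replicate left out, values ran from −0.0058 to 0.0056 for Slc43a1, −0.034 to 0.20 for Slc7a7, −0.0029 to 0.057 for Slc6a14, −6.89e-04 to 0.064 for Slc7a2, −0.025 to 0.0050 for Slc6a11, −0.099 to 0.021 for Slc1a5, −0.073 to 0.0047 for a Slc6a17 probe, −0.026 to 0.076 for Slc6a9 and −0.11 to 0.044 for Slc7a6. None of these last was called.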
